A study of Mus musculus with 4 samples.

Results

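The genes described here encode the protease-activated receptors (F2r, F2rl1, F2rl2 and F2rl3), prothrombin (F2), both plasminogen activators (Plat and Plau), the urokinase receptor (Plaur) and the serpin Serpine2. They were taken by name from the table of counts, where each symbol occurred once, and are 9 of 45703 genes. The table came from 4 cultures of astrocytes, prepared from the frontal cortex of wild-type CD-1 mice at postnatal day 4 and sequenced as poly-A RNA. All 4 cultures belonged to 1 group: they were grown with serum, B27 and EGF, reseeded at day 6 in vitro, and harvested after 3 further days, the last 1 h of it in serum-free Ham's medium. No protease, receptor agonist or genotype was compared, and no sort for astrocytes is given in the labels. What can be compared is the level of 1 gene with that of another, and 1 culture with the rest.

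Protease-activated receptors are G protein-coupled receptors that carry their own ligand: a protease cuts the extracellular end of the receptor, and the new end folds back and activates it. Thrombin is the classical activator of the receptors encoded by F2r, F2rl2 and F2rl3, whereas the F2rl1 receptor is cut by trypsin-like proteases. Tissue-type and urokinase-type plasminogen activator turn plasminogen into plasmin, the urokinase receptor holds urokinase at the cell surface, and Serpine2 (protease nexin 1, also called glia-derived nexin) inhibits thrombin and both activators. In the brain, astrocytes respond to thrombin with calcium signals, and glial cells secrete Serpine2.

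The promoter windows of 4 genes from both ends of the levels are shown because their base composition differed. A RefSeq table for GRCm38.p6 held windows for 6 of the 9 genes, each reaching from 250 bases before to 50 bases after the start site in that table. For Plaur this site lies inside the gene as deposited, and for the other 5 genes at its deposited 5′ end. F2rl1, Plat and Plau had no entry. The 4 windows below are printed on the strand of the gene, 5′ to 3′, with every CpG in capitals. F2r and Serpine2 were at the top of the levels given further down, and F2rl2 and F2rl3 were the receptors under the threshold for expression.
F2r, chr13:95618417-95618716, minus strand: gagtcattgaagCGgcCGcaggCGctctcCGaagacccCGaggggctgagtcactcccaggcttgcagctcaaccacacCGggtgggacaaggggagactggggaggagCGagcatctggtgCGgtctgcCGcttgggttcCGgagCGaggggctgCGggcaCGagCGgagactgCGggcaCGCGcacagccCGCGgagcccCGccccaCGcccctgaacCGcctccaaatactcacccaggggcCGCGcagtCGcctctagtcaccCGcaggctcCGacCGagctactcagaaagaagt
Serpine2, chr1:79858616-79858915, minus strand: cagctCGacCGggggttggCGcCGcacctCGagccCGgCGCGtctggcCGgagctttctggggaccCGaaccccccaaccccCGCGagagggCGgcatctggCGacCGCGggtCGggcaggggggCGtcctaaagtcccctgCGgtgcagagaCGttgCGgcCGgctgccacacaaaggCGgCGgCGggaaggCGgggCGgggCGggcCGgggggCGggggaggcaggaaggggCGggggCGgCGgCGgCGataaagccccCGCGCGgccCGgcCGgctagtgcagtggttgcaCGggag
F2rl2, chr13:95696670-95696969, plus strand: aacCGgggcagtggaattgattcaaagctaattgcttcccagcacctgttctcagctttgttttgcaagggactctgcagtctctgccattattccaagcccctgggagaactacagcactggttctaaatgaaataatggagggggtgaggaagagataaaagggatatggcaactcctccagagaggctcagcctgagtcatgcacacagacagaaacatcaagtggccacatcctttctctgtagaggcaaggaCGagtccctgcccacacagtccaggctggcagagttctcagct
F2rl3, chr8:72761409-72761708, plus strand: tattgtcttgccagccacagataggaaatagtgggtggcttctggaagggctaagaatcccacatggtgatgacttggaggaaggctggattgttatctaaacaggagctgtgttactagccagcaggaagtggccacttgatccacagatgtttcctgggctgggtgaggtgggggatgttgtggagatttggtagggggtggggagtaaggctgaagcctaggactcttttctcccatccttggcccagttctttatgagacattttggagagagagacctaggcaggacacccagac
The F2r window held 28 CpG and the Serpine2 window 41, against a median of 7 over all 32851 windows of the table. The F2rl2 window held 2 CpG, the F2rl3 window 0 and the F2 window 4, and the Plaur window lay between these with 7. Over all genes, windows of expressed genes had a median of 20 CpG (13725 windows) and windows of the other genes a median of 4 (19126 windows). Of the 4657 windows with at least 28 CpG, 81.9% belonged to an expressed gene, and of the 12496 windows with 4 or fewer, 10.6% did. The letters GGGCGG, a GC box that itself holds a CpG, were searched on both strands and found 6 times in the Serpine2 window, 3 times in the Plaur window and 1 time in the F2r window. They occurred in 35.7% of all windows and in none of the F2rl2, F2rl3 and F2 windows. The letters TATAAA, searched the same way, were found in none of the 6 windows and in 13.6% of all windows. Such matches describe letters only, and binding was not measured.

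The libraries held 37300485 to 42369109 counts. Levels are given as CPM, the counts scaled to a library of 1000000 counts, and, where genes are compared with each other, as RPKM, which is CPM divided by the deposited exon length in kilobases. Expressed here means that all 4 libraries reached 1 CPM, and no level is given for a gene at the floor, set at 3 counts summed over the libraries. All 10 astrocyte markers listed, among them Slc1a3, Gfap and Aqp4, passed the threshold. So did 8 of 10 microglia and macrophage markers, 5 of 8 fibroblast and meningeal markers, 5 of 8 oligodendrocyte lineage markers, 4 of 8 neuron markers, 3 of 7 mural markers and 2 of 8 endothelial markers. Of 6 platelet markers 1 passed, Itga2b, and of 6 hepatocyte markers 0. Of all protein-coding genes 58.1% passed. Pdgfra was counted in both the fibroblast and the oligodendrocyte lineage list. Culture 4 stood apart: the chi-square per degree of freedom over genes with at least 40 counts in a pair was 39.3 to 41.1 between it and the other cultures. It was 2.11 to 3.17 among cultures 1 to 3, so these were closely alike but differed by more than counting noise. In culture 4 the summed fibroblast markers were at 529.5 CPM, against 1350 to 1435 in the other cultures. Of the 5 expressed ones, the collagen genes Col1a1, Col1a2 and Col3a1 were below the range of the others, and Pdgfra and Foxc1 above it. The summed proliferation markers were at 1782 CPM, against 1370 to 1392. Lower in culture 4 were the summed microglia and macrophage markers (79.6 CPM against 124 to 132) and endothelial markers (7.84 against 13.6 to 14.7). The same held for the neuron (39.5 against 54.5 to 56.3) and astrocyte sums (8009 against 8842 to 9022). Of the 10 astrocyte markers 5 were above the range and 5 below it. The oligodendrocyte lineage sum was lower too (289.3 against 295.0 to 306.1). The mural sum lay within the range, but 2 of the 3 expressed mural markers were below their own range in culture 4. The labels speak of biological replicates without saying whether the cultures came from separate preparations, and p-values reflect no more than the spread among these libraries. In such bulk RNA, fewer cells of a type and less RNA per cell cannot be told apart.

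Of the 9 genes, 6 were expressed: F2r, F2rl1, Plat, Plau, Plaur and Serpine2. Of all genes listed, 32.2% passed the same threshold, and of the protein-coding genes 58.1%, so that the count of 6 of 9 was near the protein-coding background. F2rl2 was detected below the threshold, F2rl3 was at the floor, and F2 had no counts. The expressed genes spanned a wide range, from a mean of 3.17 CPM for Plaur to 495.4 CPM for Serpine2.

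**Figure D1:**
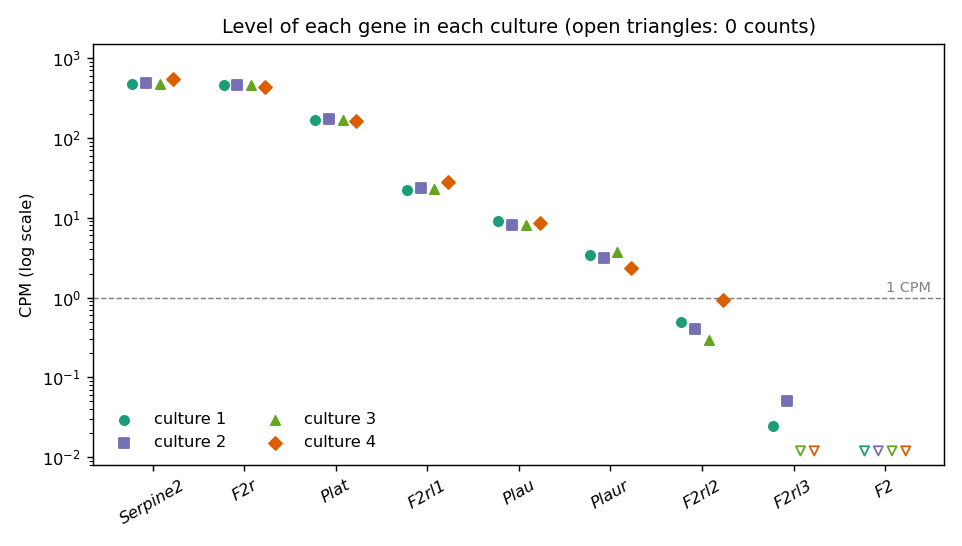
Level of each of the 9 genes in each of the 4 cultures, in CPM on a log axis, with the threshold of 1 CPM dashed and open triangles for 0 counts. Serpine2 and F2r lie near 500 CPM, Plat lies near 170 CPM, F2rl1, Plau and Plaur lie between 2.36 and 27.9 CPM, and F2rl2 lies under the threshold in all 4 cultures, nearest to it in culture 4.

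Among the receptors, F2r was by far the most abundant. F2r (GeneID 14062, chromosome 13, 95601780 to 95618466, minus strand, GRCm38.p6) encodes protease-activated receptor 1, the main thrombin receptor of many cells. It was at 461, 457, 453 and 438 CPM in cultures 1 to 4, a mean of 452.2 ± 10.1 (SD, n = 4), or 135 ± 3.02 RPKM. The 4 values were close together, culture 4 being the lowest, and F2r ranked 267 by mean CPM among all genes. By RPKM, edgeR's quasi-likelihood test placed 96.6% of 14727 genes below F2r and 2.81% above it (adjusted p under 0.05).

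F2rl1 (GeneID 14063, chromosome 13, 95511718 to 95525240, minus strand) encodes protease-activated receptor 2, which thrombin itself cuts poorly. It was at 22.3, 23.4, 22.9 and 27.9 CPM, a mean of 24.1 ± 2.52 (SD, n = 4), or 8.72 ± 0.912 RPKM. Culture 4 was the highest and lay outside the range of the other cultures. F2rl1 stood near the middle of the expressed genes, with 49.5% of the 14727 genes below it in RPKM and 43.2% above it (edgeR, adjusted p under 0.05).

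F2rl2 (GeneID 14064, chromosome 13, 95696920 to 95702768, plus strand) encodes protease-activated receptor 3, known as a cofactor for the cleavage of other receptors by thrombin. Its counts were 20, 16, 11 and 40 in cultures 1 to 4, which is 0.487, 0.399, 0.295 and 0.944 CPM. The exact Poisson 95% interval of culture 4 was 0.674 to 1.29 CPM, and it overlapped that of culture 1 (0.297 to 0.752) but not those of culture 2 (0.228 to 0.648) and culture 3 (0.147 to 0.528). These intervals treat reads as independent and leave out the spread between cultures. PCR-amplified reads are not independent molecules, so the intervals can be too narrow even for counting error. Reads counted for F2rl2 were therefore few in every culture, and most in culture 4. The gene lies inside Iqgap2, on the opposite strand to that gene's 87.7 CPM transcript, and shares none of its exon bases with it in the GENCODE annotation. The library kit keeps strand, but no source used here says whether the counting used it, so reads from Iqgap2 introns in the F2rl2 count cannot be told apart.

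F2rl3 (GeneID 14065, chromosome 8, 72761659 to 72763898, plus strand) encodes protease-activated receptor 4, a thrombin receptor best known from platelets. It had 1, 2, 0 and 0 counts, 3 in total and thus at the floor. Its expression was not detectable at this depth.

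Within the receptor family, F2r supplied 93.8 ± 0.794% of the summed RPKM (SD, n = 4), F2rl1 6.04 ± 0.721% and F2rl2 0.150 ± 0.0832%. The share of F2r was 94.4%, 94.1%, 94.2% and 92.6% in cultures 1 to 4, lowest in culture 4, where F2rl1 and F2rl2 were highest. F2r exceeded F2rl1 in RPKM by 17.1, 16.2, 16.4 and 13.04 times in the 4 cultures, a fitted log2 difference of 3.96 ± 0.08 (SE, edgeR's quasi-likelihood test, adjusted p = 5.01e-09). F2rl1 exceeded F2rl2 by 40.8, 52.2, 69.3 and 26.3 times, a log2 difference of 5.35 ± 0.21 (SE, edgeR, adjusted p = 2.06e-07). The order of the receptors was thus F2r, F2rl1, F2rl2 in every culture, with gaps larger than the spread between cultures. The SE of a log2 difference, here and below, was derived from the F statistic of the edgeR test.

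**Figure D2:**
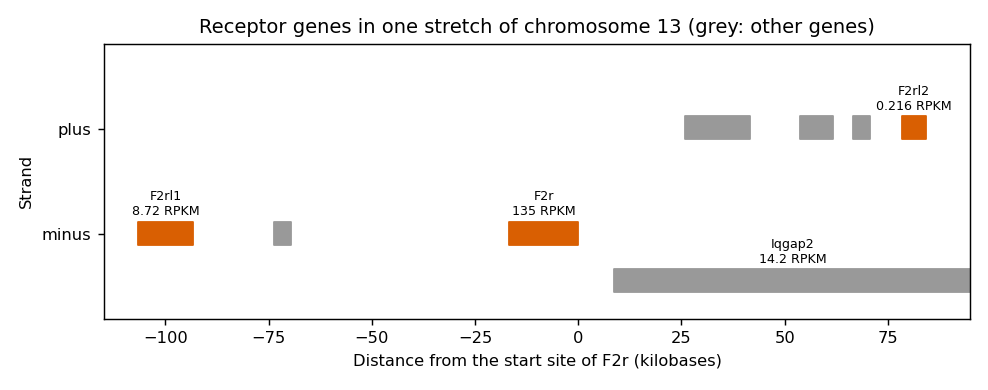
The genes around F2r on chromosome 13, by strand, against the distance from the start of F2r in kilobases, with receptor genes in orange, other genes in grey and mean RPKM above the named ones. F2r (135 RPKM) lies between F2rl1 (8.72 RPKM) and F2rl2 (0.216 RPKM), and F2rl2 lies opposite Iqgap2 (14.2 RPKM), which runs on past the right edge.

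The expressed receptors and F2rl2 are neighbours on the chromosome. From the end of F2rl1 to the start of F2r are 76539 bases, and from the end of F2r to the start of F2rl2 are 78453 bases. The stretch from the first to the last of them, 191051 bases, touches 8 genes of the table, of which 3 were expressed: F2rl1, F2r and Iqgap2, which encodes a scaffold protein of the cytoskeleton. The most abundant receptor gene and F2rl2 thus lie in 1 stretch with mean levels of 452.2 and 0.531 CPM, with 3 lncRNA genes and part of Iqgap2 between them.

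F2 (GeneID 14061, chromosome 2, 91612397 to 91636457, minus strand) encodes prothrombin, the precursor of thrombin, which the liver secretes into plasma. It had 0 counts in all 4 cultures, for which the exact Poisson 95% interval reaches up to 0.0871 to 0.0989 CPM per library. The gene overlaps Ckap5 on the opposite strand (353.6 CPM), with which it shares no exon bases. The main thrombin receptor was therefore abundant in cultures in which the transcript of thrombin's precursor was not detectable. Thrombin protein, from the cells or from the serum, was not measured.

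Of the plasminogen activators, Plat was much more abundant than Plau. Plat (GeneID 18791, chromosome 8, 22757722 to 22782848, plus strand) encodes tissue-type plasminogen activator. It was at 166, 172, 167 and 161 CPM, a mean of 166.7 ± 4.46 (SD, n = 4), or 65.3 ± 1.75 RPKM, and 91.2% of the 14727 genes were below it and 7.1% above it in RPKM (edgeR, adjusted p under 0.05). Plau (GeneID 18792, chromosome 14, 20836662 to 20843388, plus strand) encodes urokinase. It was at 9.13, 8.08, 8.10 and 8.66 CPM, a mean of 8.49 ± 0.503 (SD, n = 4), or 3.37 ± 0.1996 RPKM, with 26.7% of the 14727 genes below it and 66.1% above it (edgeR, adjusted p under 0.05). It was the only one of the 7 genes above the floor for which culture 4 lay within the range of the other cultures.

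Plat made up 95.1 ± 0.358% of the summed RPKM of both activators (SD, n = 4). Its RPKM exceeded that of Plau by 18.0, 21.0, 20.4 and 18.4 times, a log2 difference of 4.27 ± 0.06 (SE, edgeR's quasi-likelihood test, adjusted p = 1.17e-09). The size of this lead depends on the length model: with the merged exon length of the GENCODE annotation, which is 6241 bases for Plat in place of the deposited 2554, the lead was 7.45-fold.

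Plaur (GeneID 18793, chromosome 7, 24460937 to 24475970, plus strand) encodes the urokinase receptor, a protein anchored in the membrane by a lipid. It was at 3.43, 3.12, 3.75 and 2.36 CPM, a mean of 3.17 ± 0.596 (SD, n = 4), or 1.85 ± 0.348 RPKM, from 100 to 141 counts. Culture 4 was the lowest, with a Poisson 95% interval of 1.92 to 2.87 CPM. That interval overlapped the one of culture 2 (2.59 to 3.71) but not those of culture 1 (2.89 to 4.05) and culture 3 (3.16 to 4.43). The limits given for the F2rl2 intervals hold here too. The receptor was below its ligand Plau in each culture, by 1.81, 1.77, 1.47 and 2.50 times in RPKM, a log2 difference of 0.88 ± 0.14 (SE, edgeR, adjusted p = 0.000627). Of the 14727 genes, 76.8% were above Plaur in RPKM and 15% below it (edgeR, adjusted p under 0.05). The summed microglia and macrophage markers, cells that carry this receptor, were likewise lowest in culture 4, at 79.6 CPM against 124 to 132 CPM, and their part in the Plaur level was not tested.

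Serpine2 (GeneID 20720, chromosome 1, 79794317 to 79858665, minus strand) had the highest count level of the 9 genes. It was at 479, 485, 475 and 542 CPM, a mean of 495.4 ± 31.4 (SD, n = 4), or 194 ± 12.3 RPKM. Cultures 1 to 3 lay within 10 CPM of each other, and culture 4 lay above them. Of 63 protein-coding serpin genes 15 were expressed, and Serpine2 was the third of these by RPKM, after Serpinf1 (477 RPKM), which encodes pigment epithelium-derived factor, and Serpinh1 (251 RPKM), a collagen chaperone. By RPKM, 97.8% of the 14727 genes were below Serpine2 and 1.73% above it (edgeR, adjusted p under 0.05). These places rest on the deposited exon length of 2559 bases, whereas the GENCODE merged exon length is 8287 bases.

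By RPKM the order of levels was Serpine2, F2r, Plat, F2rl1, Plau, Plaur and F2rl2. In edgeR's test all 21 pairs among these 7 genes differed (adjusted p under 0.05), where 95.8% of all 88347 pairs of an expressed member with another gene did. A difference between 2 genes is thus usual in these data, and the sizes say more than the calls. F2r exceeded Plat by 2.12, 2.03, 2.08 and 2.08 times, a log2 difference of 1.05 ± 0.04 (SE, edgeR, adjusted p = 1.34e-07), and this ratio was the steadiest of those computed. Plat exceeded F2rl1 by 8.08, 7.97, 7.89 and 6.28 times, and F2rl1 exceeded Plau by 2.22, 2.64, 2.58 and 2.93 times. Plaur exceeded F2rl2 by 10.1, 11.2, 18.3 and 3.59 times, the widest spread, with F2rl2 resting on 11 to 40 counts.

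The top of the order was the exception. Serpine2 exceeded F2r in RPKM by 1.36, 1.38, 1.37 and 1.62 times, a log2 difference of 0.51 ± 0.05 (SE, edgeR's quasi-likelihood test, adjusted p = 6.58e-05). Without a length term the difference was 0.13 (edgeR, adjusted p = 0.0544), and with the GENCODE merged exon length, 8287 bases for Serpine2 in place of the deposited 2559, it turned to -1.18 (edgeR, adjusted p = 6.12e-07). With the GENCODE coding length the difference was 0.245 (edgeR, adjusted p = 0.0039), with Serpine2 again the higher. Which of these 2 genes is the higher per length was therefore set by the gene model. The ratio of Serpine2 to Plat, 2.88, 2.81, 2.84 and 3.35 in the 4 cultures, gave a log2 difference of 1.57 ± 0.06 (SE, edgeR, adjusted p = 1.15e-07). The lead of F2r over Plat was 5.07-fold and that of Plat over F2rl1 3.04-fold with the GENCODE merged exon length, and these leads were 3.53-fold and 4.94-fold with the GENCODE coding length. The lead of Plau over Plaur was 2.99-fold with the merged exon length and 2.71-fold without a length term.

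**Figure D3:**
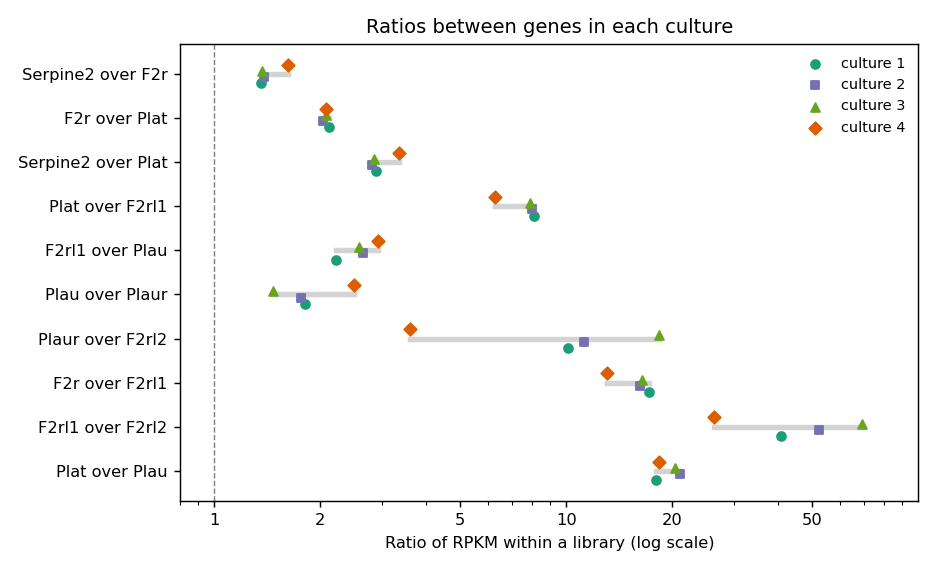
RPKM ratio of neighbours in the order of levels and of related genes, 1 point per culture, on a log axis with a dashed line at a ratio of 1 and grey bars for the range. Every ratio is above 1 in 4 of 4 cultures, the smallest being that of Serpine2 over F2r, from 1.36 to 1.62.

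The genes also differed in how far the cultures spread. The biological coefficient of variation (edgeR, the spread between libraries beyond counting error) was 0.0638 for F2r and 0.0636 for Plat, and 10.99% and 10.7% of 17105 genes had a lower one. It was 0.0700 for Serpine2, 0.0933 for F2rl1 and 0.0973 for Plau, against a median of 0.0941 over all these genes. Plaur, at 0.177, and F2rl2, at 0.323, spread more than 89.7% and 98.6% of genes. The range of log2 CPM over the cultures was 0.07 for F2r and 0.67 for Plaur, against a median of 0.22 over the expressed genes. These values rest on culture 4: without it the coefficients were 0.0235 to 0.0359 for the 7 genes, and the median over all genes was 0.0255. The order changed too: without culture 4, F2rl2 spread more than 37.8% of genes, Plaur more than 86.8% and Plau more than 87.1%.

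In culture 4 F2rl1, F2rl2 and Serpine2 were above the range of the other cultures, F2r, Plat and Plaur below it, and Plau within it. Over all expressed genes culture 4 was above that range for 47.6% and below it for 34.6%, so that lying outside it was usual. Of the 7 genes, Serpine2 alone had a gap between culture 4 and its nearest neighbour past Dixon's 95% critical value, which 15.2% of the expressed genes passed, 13.8% at culture 4. On a log2 scale culture 4 against the mean of the others was 1.26 for F2rl2, 0.28 for F2rl1 and 0.18 for Serpine2. It was -0.54 for Plaur, -0.06 for both F2r and Plat, and 0.04 for Plau, and the median over the expressed genes was 0.04. The culture furthest from the mean of the others was culture 2 for Plat (0.063) and culture 1 for Plau (0.14). The receptor genes thus did not move together. F2r differed by less than 0.1 on the log2 scale, while the CPM of both smaller ones was higher. The proliferation and cell type markers given above differed between the same cultures, and their part in these differences was not tested.

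**Figure D4:**
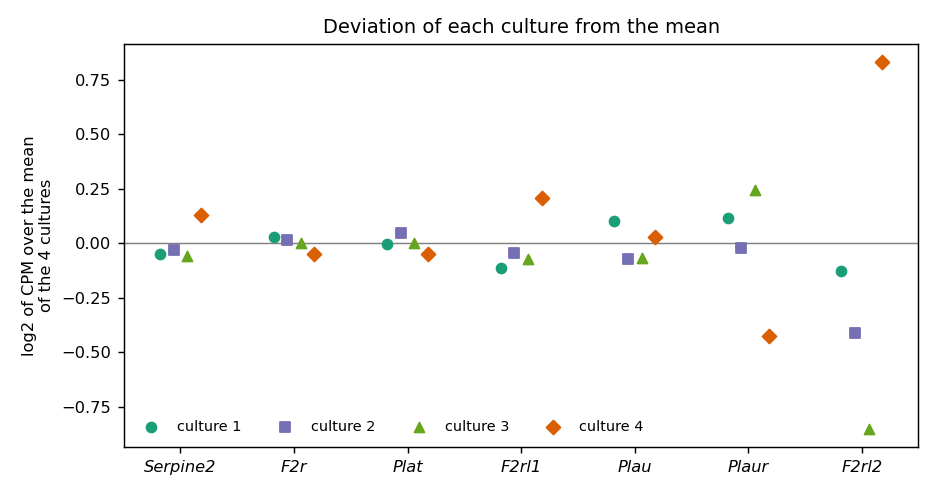
Log2 CPM of each gene above the floor in each of the 4 cultures, relative to the gene's mean. Cultures 1 to 3 lie close together for F2r and Serpine2. Culture 4 is highest for F2rl1, F2rl2 and Serpine2 and lowest for F2r, Plat and Plaur.

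By the smallest root mean square difference of centred log2 CPM over the 4 cultures, the genes most like F2r were Epb41l2 (0.0013), Memo1 (0.0023) and Csnk2a3 (0.0031). F2r changed so little that 2916 of the expressed genes lay within 0.05 of it. The genes most like Plaur, the expressed gene with the widest range, were Capn1 (0.027), TrnW (0.028) and Dennd3 (0.028), and 35 genes lay within 0.05. With 4 cultures, of which 1 stands apart, such likeness describes little more than the step between culture 4 and the others.

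The rest of the system was described from 8 lists of 117 genes in all, beginning with inhibitors. Within each list the genes named are ordered by CPM, which is not corrected for exon length. The counts of expressed genes in them stand against 58.1% of protein-coding genes, and those below or above the other cultures in culture 4 against 34.6% and 47.6% of expressed genes. Of 16 other serpins and protease inhibitors 8 were expressed. The highest were A2m (1110 ± 27.9 CPM), the broad protease trap alpha-2-macroglobulin, Serpinf1 (712.5 ± 153), Serpinb6a (43.6 ± 4.89) and Serpinb8 (14.4 ± 0.466, all SD, n = 4). By RPKM with the deposited exon lengths, Serpine2 (194) was above A2m (178) and below Serpinf1 (477). This comparison was not tested, also not with other gene models. In culture 4, 6 of the 8 were below the range of the other cultures and 2 above it, where 34.6% of all expressed genes were below, and their median log2 difference was -0.38.

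Plasminogen itself, Plg, had 6 counts in total and was not expressed, and neither were the fibrinogen genes Fga, Fgb and Fgg. Of the 15 genes for plasminogen, plasmin substrates and surface cofactors 8 passed the threshold. They included Eno1 (1007 ± 88.3 CPM), whose product can bind plasminogen at the cell surface, and Anxa2 (441 ± 34.6) and S100a10 (52.05 ± 8.02), whose products form a receptor for plasminogen and tissue-type activator. Pdgfd (41.4 ± 2.26) encodes a growth factor that urokinase can activate by cleavage. In culture 4, 6 of the 8 were below the range of the others and 1 above it, with a median log2 difference of -0.13.

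Of 9 clearance receptors 8 were expressed, led by Sorl1 (349.5 ± 9.22 CPM) and Lrp1 (316.3 ± 9.84), the endocytic receptor that takes up complexes of proteases with serpins. Lrpap1 (130.4 ± 11.5), the chaperone of these receptors, and Lrp8 (75.7 ± 6.05), which also binds reelin, followed. This order is by CPM. By RPKM with the deposited exon lengths, Lrpap1 (44.6) was above Sorl1 (31.1), Lrp1 (21.2) and Lrp8 (6.85). In culture 4, 4 of the 8 were above and 4 below the range of the others.

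Of 17 genes of thrombin generation and anticoagulation 11 were expressed. F3, which encodes tissue factor, the starter of coagulation, was the highest at 361 ± 50.9 CPM, or 192 ± 27.1 RPKM. With the deposited exon lengths, its RPKM differed from the mean of Serpine2 by less than the SD between cultures. F3 was followed by Gas6 (100.3 ± 3.93), Pros1 (95.9 ± 5.2) and Vkorc1l1 (77.0 ± 2.1), the first 2 being vitamin K-dependent proteins. In culture 4, 6 of the 11 were below the range of the others and 1 above it. The protease factors F7, F9, F10, F11 and F12, and Proc, were not expressed. The tissue-factor transcript was therefore abundant while those of prothrombin and of these protease factors were below the threshold.

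Of 19 other proteases listed as able to cut or process these receptors or their partners 7 were expressed, led by Mmp14 (487 ± 36.3 CPM), Bmp1 (248.7 ± 21), Adam17 (120.3 ± 6.29) and Furin (87.2 ± 4.83). The trypsinogen genes Prss1, Prss2 and Prss3, and Klk6, Ctsg and Elane, were not expressed. In culture 4, 4 of the 7 were below the range of the others and 2 above it. Downstream, 22 of 23 genes of receptor coupling were expressed, all but Plcb2. The highest were Gnai2 (890.5 ± 34), Rhoa (471 ± 4.54), Ap2m1 (336.6 ± 8.96) and Rock2 (324 ± 14.8), that is an inhibitory G protein subunit, a small GTPase, an endocytic adaptor subunit and the kinase that acts after Rhoa. In culture 4, 10 of the 22 were below and 7 above the range of the others. Of 8 integrin genes paired with the urokinase receptor 7 were expressed, led by Itgb1 (1709 ± 47.9) and Itgav (346 ± 25.3), and in culture 4, 6 of the 7 were below the range of the others and 1 above it.

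Of 10 genes known to respond to receptor activation 7 were expressed: Ccnd1 (2131 ± 146 CPM), Ccn1 (180.7 ± 40.8), Ccn2 (115 ± 19.2) and Egr1 (40.8 ± 8.13) were the highest, while Il6, Cxcl1 and Nos2 were not expressed. All 7 were below the range of the other cultures in culture 4, where 34.6% of all expressed genes were, with a median log2 difference of -0.67 against 0.04 over the expressed genes. In the same culture F2r was at -0.06. The genes respond to many other signals, and the part of the proliferation and cell type markers in the result was not tested. Of the fibroblast markers 3 were lower and 2 higher in the same culture.

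**Figure D5:**
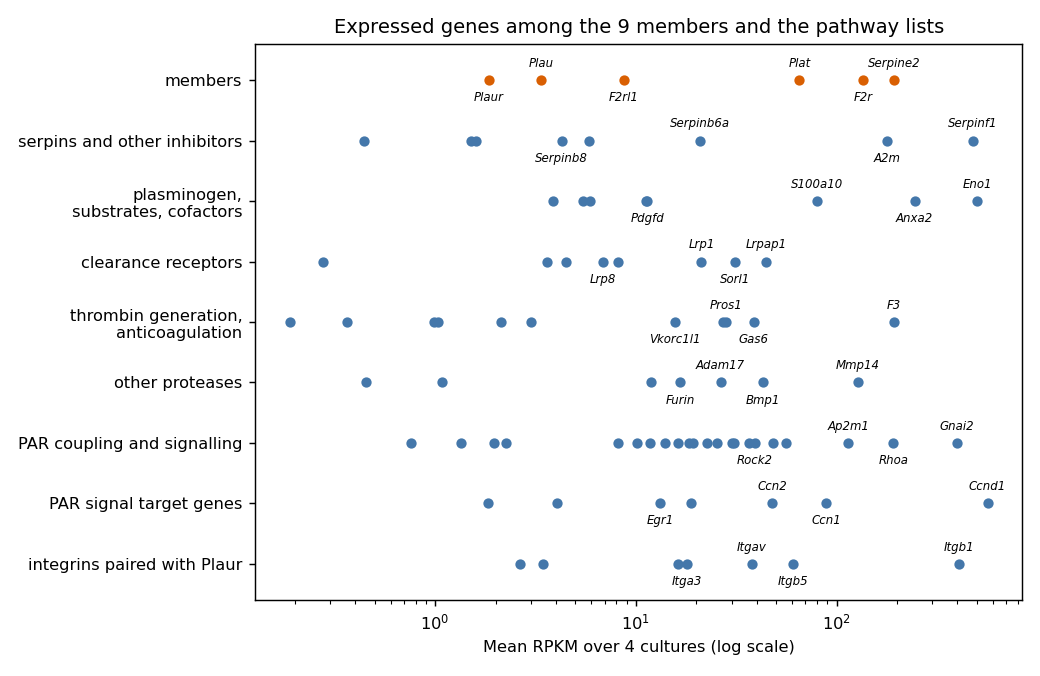
Mean RPKM over the 4 cultures of each expressed gene, on a log axis, with the 6 expressed members in the top line and the 8 lists of the system below it; the 4 genes of highest CPM in each list carry their names. With the deposited exon lengths, Serpine2 (194 RPKM) and F3 (192 RPKM) lie above F2r (135 RPKM).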

How the data were processed

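The authors sequenced poly-A RNA of 4 cultures and deposited 1 table of estimated counts for 45703 genes with RefSeq coordinates and combined exon length. STAR 2.7.2b and featureCounts 1.6.4 are listed in the submitters' processing notes, as are cutadapt 1.17, bcl2fastq 2.20.0.422 and the build GRCm38.p6, without settings. Of the deposited counts above 0, 31.7% were not whole, which leaves genes that share reads uncertain, and counts were rounded for the tests.

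CPM used the raw library sums, RPKM the deposited exon length, and edgeR 4.0.16 in R 4.3.3 (two-sided quasi-likelihood test) the pair comparisons. The test was also run on simulated pairs of independent genes. These had an equal spread in every library, whereas culture 4 stands apart here. Each pair of genes had 8 counts, an offset of library size times exon length, and terms for library and gene. The test itself gives no SE. The SE printed with edgeR is the absolute log2 difference divided by the square root of the F statistic. For F2r over F2rl1 it was 0.080, against an SE of 0.089 from DESeq2. Benjamini-Hochberg adjustment ran over all 88347 pairs of an expressed member with another gene. Spread used TMM and filterByExpr. DESeq2 1.42.0, other scalings, filters and lengths, and leaving out each culture were alternatives. The members, lists and tests were chosen with earlier results of these data known. All 9 members are named, of each list the 4 expressed genes of highest mean CPM at most, and the 3 genes most like F2r and the most variable expressed member. Genes named as not expressed were picked after their values were seen. Of the pathway lists, 2 genes are not reported here and are left out of the counts.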

Additional observations from a re-analysis of the deposited data

Results flagged for a closer look

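In 4 cultures, a value was singled out where its gap to the nearest other, as a share of the whole range, exceeded Dixon's 95% critical value. Chance does so in about 1 of 20 groups, and here 15.2% of all 14725 expressed genes met it, 13.8% at culture 4. In each case below the culture standing apart was culture 4. Serpine2 was at 542.2 CPM against 475.4 to 484.7 in the others. Its RPKM ratio to F2r was 1.616 against 1.357 to 1.384, and its ratio to Plat was 3.354 against 2.808 to 2.879. The ratio of Plat to F2rl1 was 6.28 against 7.89 to 8.078.

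Of each list of the system only the 4 expressed genes of highest CPM were examined in this way. Of these, 5 genes were lower in culture 4. Serpinf1 was at 484.2 CPM against 780.0 to 803.3. Anxa2 was at 389.6 CPM against 451.5 to 463.0, and its partner S100a10 at 40.03 against 55.79 to 56.57. F3 was at 285.7 CPM against 374.7 to 392.1, and Ccn2 at 86.36 against 122.8 to 126.4. Mmp14, a membrane-bound matrix protease, was higher, at 541.4 CPM against 464.6 to 473.3, and so was the endocytic receptor gene Lrp8, at 84.66 against 71.73 to 73.54. The proliferation and cell type markers differed between the same cultures, and their part in these values was not tested.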

How the results depend on the processing

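Of 224 values recomputed under alternatives, 215 counted as kept. Mean levels and culture 4 type deviations counted so if they moved by less than the spread between cultures. Counts of genes or pairs and the coefficients of variation did so if they stayed within 1.5-fold. RPKM ratios were judged by direction and side of the threshold alone, so their size could change. The lead of Plat over Plau, for example, went from 19.4-fold to 7.45-fold with the GENCODE merged exon length. The exceptions were the lead of Serpine2 over F2r and the biological coefficients of variation without culture 4. The log2 RPKM difference of Serpine2 over F2r, 0.51, was 0.13 without a length term. With the GENCODE merged exon length, which was chosen after seeing the data, it was -1.18. With the GENCODE coding length the difference was 0.245. It was 0.45 to 0.54 with 1 culture left out, and 0.57 with cultures 1 to 3 summed as 1 sample (edgeR, adjusted p = 0.00171). The coefficients ran, with 1 culture left out, from 0.0237 to 0.0799 for F2r, 0.0235 to 0.111 for F2rl1, 0.0243 to 0.368 for F2rl2, 0.0238 to 0.0796 for Plat, 0.0359 to 0.124 for Plau, 0.0357 to 0.212 for Plaur and 0.0237 to 0.0854 for Serpine2, lowest without culture 4 in each case. The count of 6 expressed genes was the same under every alternative run. The planned coding length from a protein table was not run, and the longest GENCODE coding length, chosen after seeing the data, took its place. Depth limits F2rl2, F2rl3 and F2. Samples could not be paired because there is 1 group, whereas pairs of genes were compared within each library.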
